A study of Mus musculus with 6 samples.

Results

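The miR-99, miR-100 and miR-125 microRNAs are encoded beside members of the let-7 family, and their abundance was compared in mouse primary mesangial cells that had or had not been given the profibrotic cytokine TGF-β1 (transforming growth factor β1). The members were every row of the hairpins miR-99a, miR-99b, miR-100, miR-125a, miR-125b-1 and miR-125b-2, on either arm, which gave 11 of the 778 mature miRNAs in the table. Mesangial cells are contractile cells that hold up the capillaries of the glomerulus. In both groups they were grown in 25.5 mM glucose with 20% foetal bovine serum and used between passages 3 and 6. The Control group (3 libraries) is labelled only as control, and the TGF-b1 group (3 libraries) received 10 ng/ml of the cytokine over 72 h. Nothing in the labels says that the libraries of a group came from separate cultures. The p-values therefore judge group differences only against the variation between these libraries, which may be technical. The question here is whether neighbours at 1 locus, and relatives with 1 seed, moved together after the cytokine.

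MicroRNAs are short RNAs that guide the silencing complex to messenger RNAs, mainly through the seed, bases 2 to 8 from the 5′ end. A hairpin precursor is cut into a 5p and a 3p arm, and usually 1 arm accumulates while the other is mostly lost. The arrangement of a miR-99 or miR-100 hairpin, a let-7 hairpin and a miR-125 hairpin is ancient. MiR-125 is the vertebrate relative of lin-4, which together with let-7 times larval development in worms, and miR-99 and miR-100 are relatives of miR-10.

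All 11 members matched a mature sequence of RefSeq by name (build GRCm38.p6), and the 5p arms are shown first because their seeds define 2 families that cut across the 3 loci. Capitals mark the seed.
mmu-miR-99a-5p: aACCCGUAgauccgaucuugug
mmu-miR-100-5p: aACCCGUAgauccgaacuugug
mmu-miR-99b-5p: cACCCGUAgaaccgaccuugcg
mmu-miR-125a-5p: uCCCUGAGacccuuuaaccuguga
mmu-miR-125b-5p: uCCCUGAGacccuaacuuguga
mmu-miR-351-5p: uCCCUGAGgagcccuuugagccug
MiR-351-5p is no member and lies on the X chromosome, but it is the only other row with the miR-125 seed among the rows matched to a sequence (581 of 778). Counted from the 5′ end, miR-100-5p differs from miR-99a-5p by the single substitution U16A, and miR-99b-5p differs from miR-99a-5p by A1C, U11A, U16C and U21C. MiR-125a-5p and miR-125b-5p share their first 13 bases, and miR-125b-5p and miR-351-5p share only the first 8. How the authors assigned reads that match more than 1 miRNA is not given in the sources used here, so the split between miR-99a-5p and miR-100-5p in particular is uncertain. None of the 11 members had values identical to those of another row.

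The 3p arms are shown because they tell the hairpins apart, above all the pair of miR-125b hairpins, whose 5p arms have the same sequence and form 1 row.
mmu-miR-125b-1-3p: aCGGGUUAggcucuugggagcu
mmu-miR-125b-2-3p: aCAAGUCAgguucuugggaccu
mmu-miR-99b-3p: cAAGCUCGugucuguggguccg
Here too the seed is in capitals. The 3p arms of miR-125b-1 and miR-125b-2 differ within the seed, whereas miR-99b-3p shares its seed with miR-99a-3p.

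The first locus is the most compact. On the plus strand of chromosome 17 (GRCm38.p6), Mir99b (17830188 to 17830257), Mirlet7e (17830352 to 17830444) and Mir125a (17830812 to 17830879) lie within 692 bp, inside the span of the protein-coding gene Spaca6. On chromosome 16, Mir99a (77598936 to 77599000) and Mirlet7c-1 (77599657 to 77599750) are 656 bp apart, and Mir125b-2 (77646273 to 77646343) follows after a gap of 46522 bp. On chromosome 9, Mir100 (41531425 to 41531504), Mirlet7a-2 (41536716 to 41536811) and Mir125b-1 (41581926 to 41582002) lie within the long noncoding RNA gene Mir100hg, separated by gaps of 5211 and 45114 bp. All 9 hairpins are on the plus strand. The mature let-7a-5p and let-7c-5p sequences are each also made from another hairpin elsewhere in the genome, so their rows do not report 1 locus.

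Levels are in RPM, that is, reads per 1000000 reads of a library's total, and abundance, ranks and shares refer to these reads. Whether reads count the molecules of different miRNAs alike was not tested. Each read covers a whole mature miRNA, so RPM needs no scaling by length. The totals ranged from 16478281 to 20169254 reads, and 1 read was worth 0.0496 to 0.0607 RPM. The rows of the table summed to 79.5% to 79.8% of the total in Control and to 71.6% to 73.1% in TGF-b1, and the part of this difference in the results below was not tested. Changes were fitted with limma on log2(RPM + 1) over the 408 miRNAs with enough reads, which included all 11 members. That scale understates the change of low miRNAs. The median change of all 408 was -0.17 with library totals and -0.07 after TMM scaling, which assumes that most miRNAs do not change, so TMM values are given beside those of the members' 5p arms, and of other miRNAs where the call or the size differs. Of the miRNAs set as markers of contractile mesenchymal cells (miR-143, miR-145, miR-199a and miR-214 arms), 5 of 6 names were found, with summed levels of 2587 to 2962 RPM in Control and 2609 to 3075 in TGF-b1. Of these 5, 1 was called higher and 2 lower. The summed level of 7 epithelial miRNAs, most of it miR-192-5p, was 315 to 329 RPM in Control and 343 to 367 in TGF-b1, although of the 5 that could be tested 3 were called lower and 2 higher. For 3 skeletal muscle miRNAs, nearly all miR-206-3p, it was 3440 to 3646 RPM in Control and 3285 to 3466 in TGF-b1. Of the 2 muscle miRNAs that could be tested, 0 were called. For 2 neural miRNAs it was 2.06 to 2.40 and 1.40 to 1.93, and of these 2, both tested, 1 was called lower. The endothelial miRNAs found (miR-126-3p and miR-126-5p, 2 of 4 names) stayed at or below 0.360 RPM in every library. So did the only blood miRNA found (miR-451, 1 of 5 names), as no listed miR-142 or miR-223 name was found. No marker found was at 0 in all libraries, and the part of these other cell types in the results was not tested. In bulk libraries, fewer cells of a type and less RNA per cell cannot be told apart.

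Mature miR-125b-5p rose after TGF-b1, whereas its seed relative miR-125a-5p, and miR-99a-5p, miR-100-5p and miR-99b-3p, fell relative to the library totals. By limma with an adjusted p under 0.05, 1 of 11 members was higher, where 17.4% of all 408 miRNAs were, and 4 of 11 were lower, where 31.9% were. After TMM scaling 1 member was higher, beside 20.3% of all tested, and 0 were lower, beside 25.7%. At an unadjusted p under 0.05 with TMM, 2 members were lower and 2 higher, beside 28.2% and 24.5% of all tested. The 4 lower calls were thus made with library totals and not with TMM. No member also passed an absolute log2 change of 1 in limma, edgeR or DESeq2, beside 12.3% of all miRNAs in limma, although 6 members had an unadjusted limma p under 0.05, beside 55.9% of all tested. Members' changes had a median of -0.33 with library totals and -0.18 with TMM. Measured from the median of all tested miRNAs with library totals, the 4 lower members were at -0.16 (miR-100-5p), -0.18 (miR-99a-5p), -0.22 (miR-125a-5p) and -0.23 (miR-99b-3p).

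**Figure D1:**
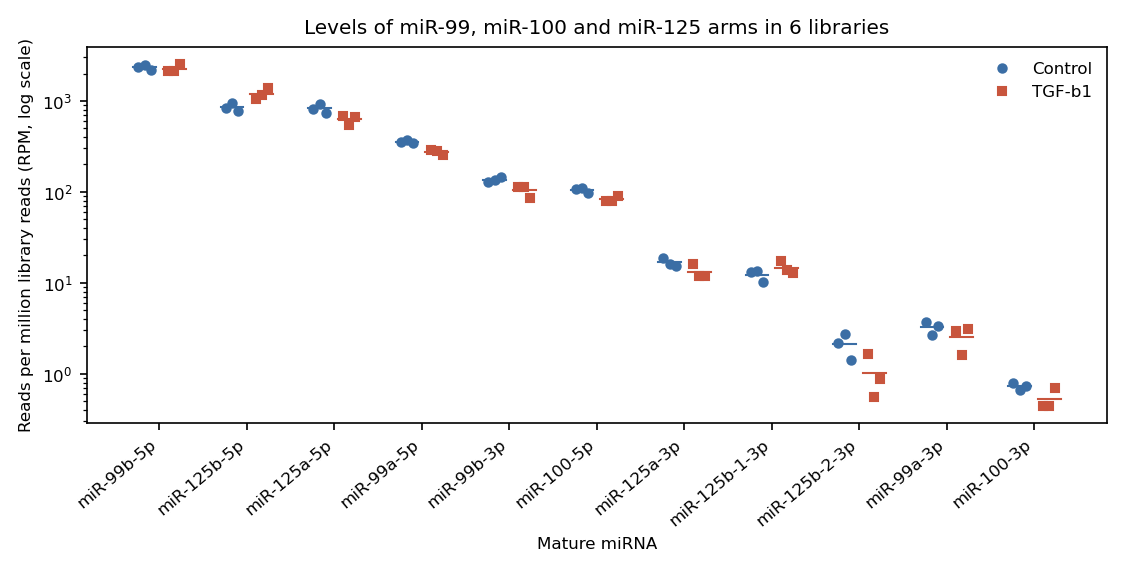
RPM of the 11 members (log axis) in each library, with Control libraries as blue circles, TGF-b1 libraries as red squares and group means as short lines. The levels span from 2348 RPM for miR-99b-5p to 0.729 RPM for miR-100-3p in Control, and only for miR-125b-5p do all TGF-b1 libraries lie above all Control libraries.

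The miR-99b-5p arm was the most abundant member, ranked 22 of 778 by mean level, followed by miR-125b-5p at 33, miR-125a-5p at 38, miR-99a-5p at 53, miR-99b-3p at 76 and miR-100-5p at 81. In Control the ranges of miR-125b-5p and miR-125a-5p, which are encoded at different loci, overlapped, and in TGF-b1 they did not. The ranges of miR-99b-3p and miR-100-5p were separate in Control (129.7 to 144 and 98.1 to 110.4 RPM) but overlapped in TGF-b1. Among the low arms, miR-125a-3p ranked 156, miR-125b-1-3p 163, miR-99a-3p 278, miR-125b-2-3p 320 and miR-100-3p 393.

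MiR-125b-5p, a vertebrate relative of lin-4, had 836, 943 and 780.1 RPM in Control replicates 1 to 3 and 1038, 1152 and 1374 RPM in TGF-b1 replicates 1 to 3. Every TGF-b1 library lay above every Control library, as for 20.8% of the tested miRNAs. The mean was 853 ± 82.7 RPM in Control and 1188 ± 171 RPM in TGF-b1 (SD, n = 3 each), a ratio of 1.39. The change on the log2(RPM + 1) scale was 0.47 ± 0.12 (SE), with a 95% interval of 0.20 to 0.75 and a limma adjusted p of 0.0126. With TMM it was 0.62 (limma adjusted p = 0.00167). It passed in all 18 alternatives, those without 1 library included, with changes of 0.36 to 0.70 and adjusted p-values up to 0.0436. Relative to the median of all tested miRNAs it was 0.65.

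MiR-125a-5p carries the same seed but is encoded with miR-99b and let-7e. It had 806, 932 and 745 RPM in Control and 684, 538 and 669 RPM in TGF-b1, so each TGF-b1 value was under each Control value, as for 36% of the tested miRNAs. The mean fell from 827 ± 95.7 to 630.2 ± 79.9 RPM (SD, n = 3 each). The log2 change was -0.39 ± 0.12 (SE), with a 95% interval of -0.68 to -0.11 and a limma adjusted p of 0.0292. After TMM scaling it was -0.24, and the limma adjusted p of 0.0813 missed the threshold. The call was also lost without Control replicate 1 (-0.41, adjusted p = 0.0684), Control replicate 2 (-0.31, adjusted p = 0.105) or TGF-b1 replicate 2 (-0.28, adjusted p = 0.0940) in limma. Control replicate 2 had the highest level of both miR-125a-5p and miR-125b-5p among the Control libraries.

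Because a ratio within a library does not depend on scaling, the pair was also compared directly. The ratio of miR-125a-5p to miR-125b-5p was 0.964, 0.989 and 0.954 in Control and 0.659, 0.467 and 0.487 in TGF-b1. The arms thus had similar numbers of reads in each Control library, and miR-125b-5p had more reads than miR-125a-5p in every library of both groups. The log2 ratio differed by -0.87 ± 0.16 (SE), and the exact two-sided permutation test gave p = 0.1 (n = 3 each), the smallest that 3 against 3 libraries can give, and 0.133 adjusted over 20 ratios. Leaving out any 1 library kept this difference between -1.02 and -0.77. No ratio could pass 0.05 in this design. In 15 of the 20 ratios, taken on log2(RPM + 1), the groups did not overlap, but the ratios share members and are not independent. Only 19 of the 20 were planned. The 15 include the unplanned ratio of miR-125b-1-3p to miR-125b-2-3p, chosen after its values were seen. They also include miR-100-3p over miR-100-5p, whose ratios of RPM without a pseudocount overlapped. How often other pairs of miRNAs separate the groups was not measured. Of single tested miRNAs, 20.8% were higher and 36% lower in TGF-b1 without overlap.

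**Figure D2:**
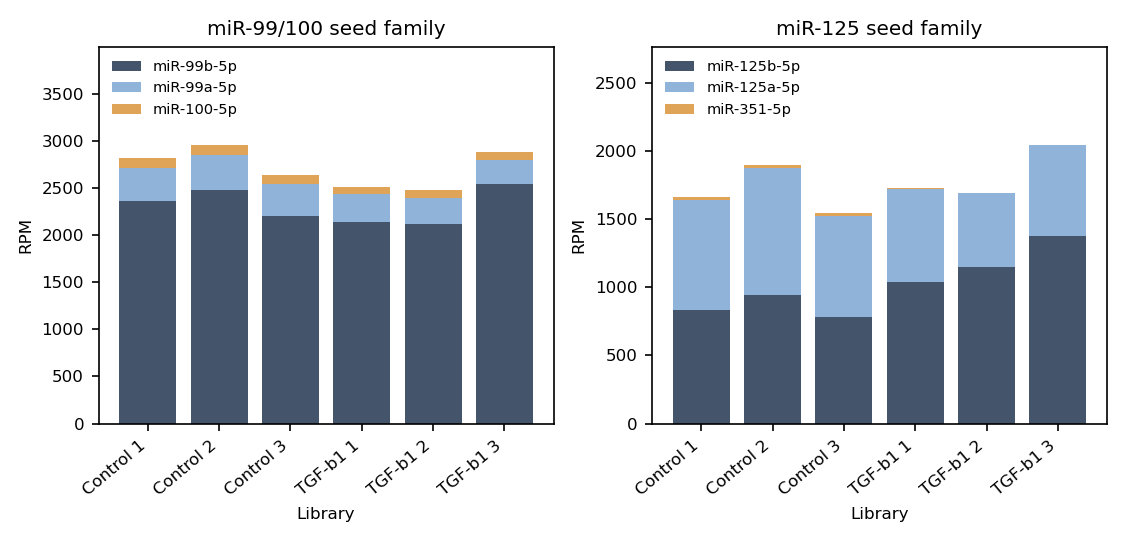
Stacked RPM of the mature miRNAs that share the miR-99/100 seed (left) and the miR-125 seed (right), 1 bar per library. The stacks overlap in height between the groups, while the miR-125b-5p part of the miR-125 stack grows from about 50.1% to 65.0%.

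Summed over the miR-125 seed, the 3 miRNAs had 1703 ± 179 RPM in Control and 1824 ± 196 RPM in TGF-b1 (SD, n = 3 each), with overlap between the groups. Within that sum the composition shifted. MiR-125b-5p made up 50.2%, 49.7% and 50.5% in Control and 60.1%, 68.0% and 67.1% in TGF-b1, and miR-125a-5p went from a mean of 48.6% ± 0.486 to 34.7% ± 4.28. The remainder was miR-351-5p, at 24.0, 23.5 and 20.9 RPM in Control and 5.85, 4.74 and 6.03 RPM in TGF-b1. Its log2 change was -1.87 ± 0.14 (SE, limma adjusted p = 4.62e-05), or -1.73 with TMM. The ratio of miR-125b-5p to miR-351-5p was 37.4 ± 2.63 in Control and 216 ± 34.3 in TGF-b1. The difference in log2 ratio was 2.34 (exact two-sided permutation p = 0.1, adjusted p = 0.133, n = 3 each). With a pseudocount of 0.1 it was 2.50, and with 10 it was 1.55.

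In the miR-99/100 seed family, miR-99b-5p had 2363, 2481 and 2200.45 RPM in Control and 2138, 2117 and 2539 RPM in TGF-b1. The groups overlapped, with the highest value in TGF-b1 replicate 3. Its log2 change was -0.06 ± 0.09 (SE, 95% interval -0.26 to 0.15, limma adjusted p = 0.638) with library totals and 0.10 (limma adjusted p = 0.383) with TMM, so the sign depended on the scaling. Neither value passed.

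MiR-99a-5p, which is encoded with let-7c, had 350.04, 367 and 343 RPM in Control and 292, 278 and 257 RPM in TGF-b1. The groups were well apart, from a mean of 353 ± 12.8 to 276 ± 17.5 RPM (SD, n = 3 each). The log2 change was -0.36 ± 0.09 (SE, limma adjusted p = 0.0106) and stayed below 0.05 in limma without any 1 library, with adjusted p-values up to 0.0394. With TMM it was -0.21 (limma adjusted p = 0.125).

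MiR-100-5p, which is encoded with let-7a-2, had 107, 110.4 and 98.1 RPM in Control and 80.2, 79.9 and 89.95 RPM in TGF-b1. All TGF-b1 libraries were again the lower ones. The log2 change was -0.33 ± 0.11 (SE, limma adjusted p = 0.0318) with library totals and -0.18 (limma adjusted p = 0.161) with TMM. In limma the call was lost without Control replicate 1 (adjusted p = 0.0911), Control replicate 2 (0.0901), TGF-b1 replicate 1 (0.0721) or TGF-b1 replicate 2 (0.105), with changes of -0.30 to -0.32.

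Relative to miR-99b-5p, both of these seed relatives were lower in every TGF-b1 library than in any Control library. The ratio of miR-99b-5p to miR-100-5p was 22.0, 22.5 and 22.4 in Control and 26.7, 26.5 and 28.2 in TGF-b1. Its log2 difference was 0.28 ± 0.03 (SE), and that of miR-99b-5p over miR-99a-5p was 0.30 ± 0.14 (SE), both at an exact permutation p of 0.1 (two-sided, adjusted p = 0.133). Without TGF-b1 replicate 3 the latter was 0.17. By contrast, miR-100-5p over miR-99a-5p was 0.298 ± 0.0103 in Control and 0.304 ± 0.0401 in TGF-b1, which the exact permutation test did not separate (two-sided p = 0.9, n = 3 each). The summed level of the family was 2807 ± 159 RPM in Control and 2624 ± 228 RPM in TGF-b1 (SD, n = 3 each) with overlapping libraries, and miR-99b-5p made up 83.6% ± 0.293 and 86.2% ± 1.52 of it.

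**Figure D3:**
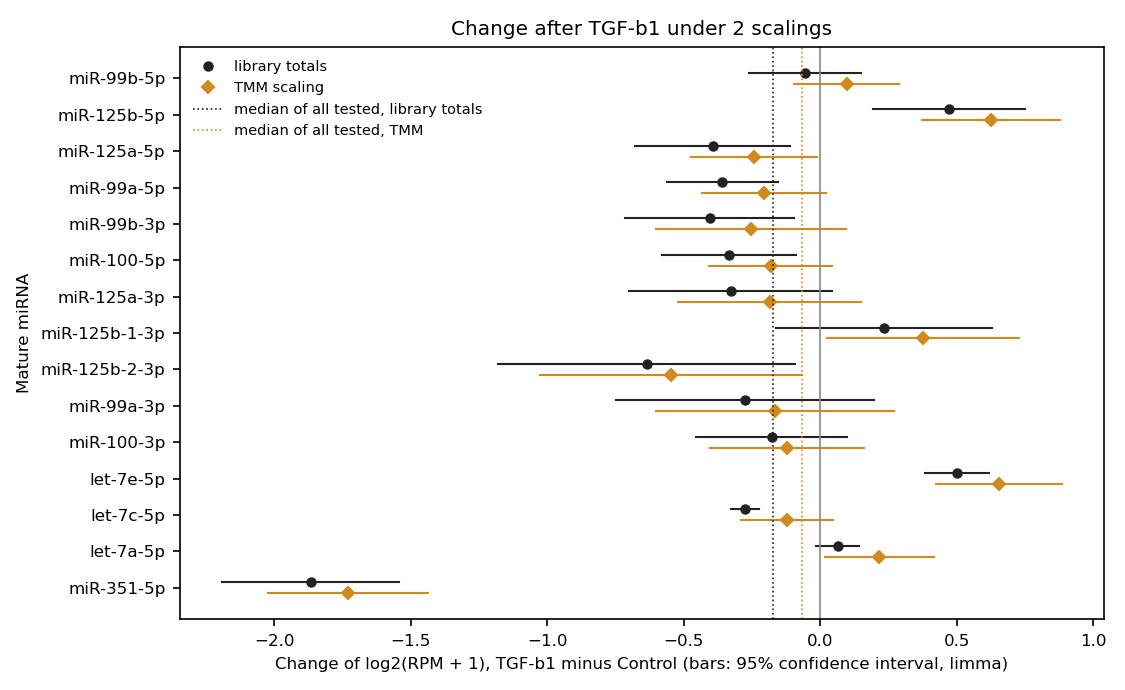
Change of log2(RPM + 1) after TGF-b1 for the 11 members, the let-7 5p arms and miR-351-5p, with library totals (black circles) and TMM scaling (orange diamonds), 95% confidence intervals from limma as bars and the median of all tested miRNAs as dotted lines. The interval of miR-125b-5p lies above 0 under both scalings, while those of miR-99a-5p, miR-99b-3p and miR-100-5p lie below 0 only with library totals. Those of miR-125a-5p and miR-125b-2-3p lie below 0 under both, although neither had a limma adjusted p under 0.05 with TMM.

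Members of 1 locus did not all move alike. In the compact miR-99b, let-7e and miR-125a locus, let-7e-5p had 45597.5, 49297 and 51798 RPM in Control and 68004, 71626 and 67965 RPM in TGF-b1. This let-7 arm, a highly abundant member of the family known for restraining growth, rose by 0.50 ± 0.05 (SE) on the log2 scale (limma adjusted p = 0.000215), and by 0.66 with TMM. Its ratio to miR-99b-5p went from 20.9 ± 2.30 to 30.8 ± 3.64 and its ratio to miR-125a-5p from 59.7 ± 8.76 to 111 ± 18.8 (SD, n = 3 each). The log2 differences were 0.56 ± 0.13 and 0.90 ± 0.18 (SE), both at an exact permutation p of 0.1 (two-sided, adjusted p = 0.133). MiR-99b-5p over miR-125a-5p also separated the groups, at 2.66 to 2.96 in Control and 3.13 to 3.93 in TGF-b1. With library totals, the 5p arms of the 3 hairpins thus comprised 1 that rose, 1 that did not pass the test and 1 that fell. The seed of let-7e-5p is found in 9 rows, let-7c-5p among them, so its level may also depend on how reads were assigned.

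At the locus of miR-99a and let-7c, the ratio of the neighbouring 5p arms did not separate the groups. Let-7c-5p, the most abundant miRNA of the table, had 254593 ± 3367 RPM in Control against 210302 ± 2182 in TGF-b1 (SD, n = 3 each). On the log2 scale it fell by 0.28 ± 0.02 (SE) with library totals (limma adjusted p = 6.05e-05), and the change was -0.12 with TMM (limma adjusted p = 0.202). The ratio of miR-99a-5p to let-7c-5p overlapped between the groups, with a log2 difference of -0.08 ± 0.07 (SE, exact two-sided permutation p = 0.4, n = 3 each). The ratio of miR-99a-5p to miR-125b-5p, to which the same locus contributes, was 0.390 to 0.439 in Control and 0.187 to 0.281 in TGF-b1.

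At the locus of miR-100 and let-7a-2, let-7a-5p had 81872 to 85966 RPM in Control and 85499 to 90535 RPM in TGF-b1 (log2 change 0.06, limma adjusted p = 0.162). With TMM the change was 0.22 (limma adjusted p = 0.0722), and it passed with median-of-ratios scaling (0.28, limma adjusted p = 0.0494) and with scaling to the summed rows (0.20, limma adjusted p = 0.00166). The log2 ratio of miR-100-5p to let-7a-5p differed by -0.40 ± 0.10 (SE) without overlap (exact two-sided permutation p = 0.1, adjusted p = 0.133). The ratio of miR-100-5p to miR-125b-5p was 0.117 to 0.128 in Control and 0.0654 to 0.0773 in TGF-b1. The let-7 3p arms of the 3 loci were scarce: let-7e-3p had 2.16 to 5.52 RPM in Control and 2.40 to 4.51 in TGF-b1, let-7c-1-3p had at most 4 reads in a library, and let-7a-2-3p had 1 read in all, in Control replicate 2.

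**Figure D4:**
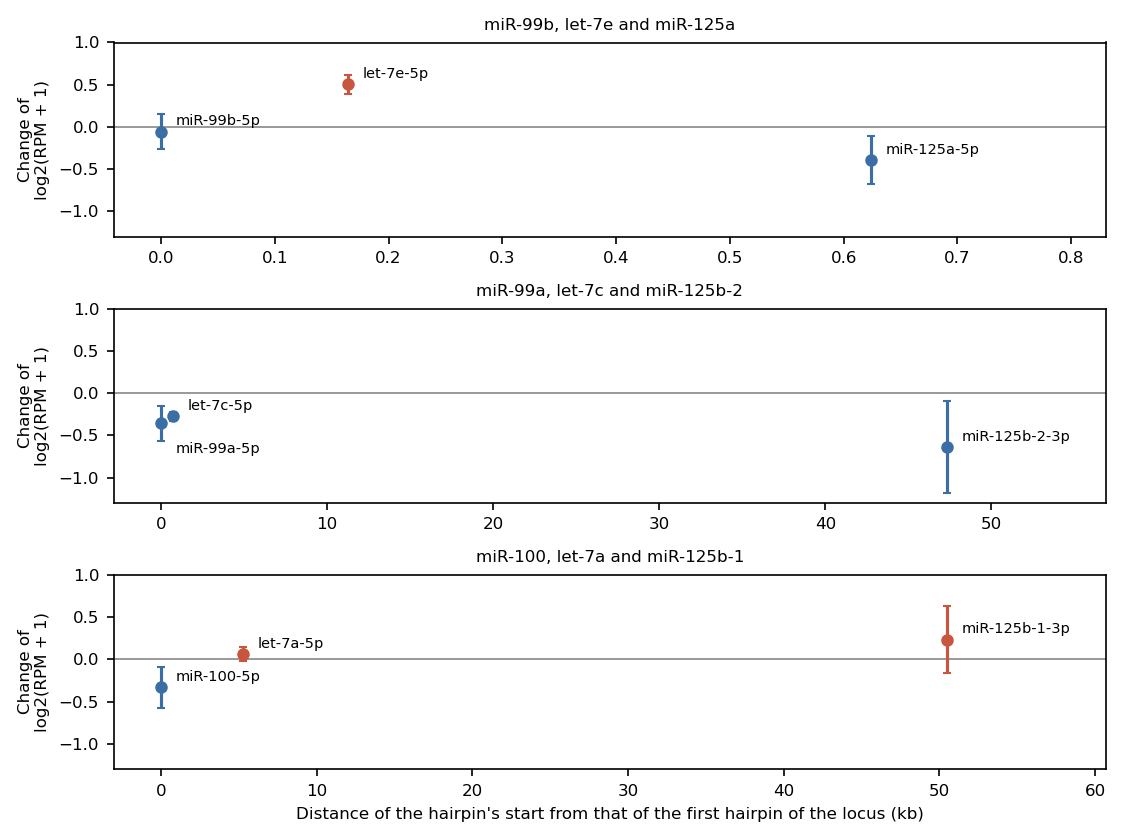
Change of log2(RPM + 1) with library totals (limma, bars 95% confidence interval, red above 0 and blue below 0) against the distance of each hairpin's start from that of the first hairpin of its locus, in kb. The miR-125b hairpins are shown by their 3p arms because their 5p arms are 1 row, and let-7a-5p and let-7c-5p also come from other hairpins. In the compact locus let-7e-5p lies at 0.50 between miR-99b-5p at -0.06 and miR-125a-5p at -0.39.

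The 3p arms of miR-125b were the only rows that separate its hairpins. MiR-125b-1-3p had 13.1, 13.5 and 10.1 RPM in Control and 17.4, 13.7 and 12.7 RPM in TGF-b1, and its log2 change of 0.23 ± 0.17 (SE, limma adjusted p = 0.294) did not pass. It was 0.38 with TMM (limma adjusted p = 0.0755) and 0.44 with median-of-ratios scaling (limma adjusted p = 0.0465). MiR-125b-2-3p rested on few reads, 36, 46 and 25 in Control and 33, 10 and 15 in TGF-b1, which is 2.18, 2.76 and 1.42 RPM and then 1.64, 0.558 and 0.878 RPM. Its groups overlapped, and the log2 change was -0.64 ± 0.24 (SE, limma adjusted p = 0.0540), or -0.55 with TMM (limma adjusted p = 0.0608). It passed with upper-quartile scaling (-0.56, limma adjusted p = 0.0416) and without Control replicate 3 (-0.81, limma adjusted p = 0.0243) or without TGF-b1 replicate 1 (-0.84, limma adjusted p = 0.0123).

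The ratio of the 3p arm of miR-125b-1 to that of miR-125b-2, chosen after its values were seen, was 6.00, 4.89 and 7.12 in Control and 10.6, 24.5 and 14.5 in TGF-b1. The groups did not overlap, with a log2 difference of 0.87 ± 0.16 (SE, exact two-sided permutation p = 0.1, adjusted p = 0.133, n = 3 each). The size of this difference depends on the pseudocount added to both arms, at 1.30 with 0.1 and 0.28 with 10. The ratio divides by as few as 10 reads. Against miR-125b-5p, the log2 ratio of miR-125b-2-3p differed by -1.11 ± 0.32 (SE) without overlap, by -1.52 with a pseudocount of 0.1 and by -0.60 with 10. That of miR-125b-1-3p differed by -0.24 ± 0.25 (SE) with overlap (exact two-sided permutation p = 0.1 and 0.5). It was -0.46 without TGF-b1 replicate 1 and -0.04 without TGF-b1 replicate 3.

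Of the other 3p arms, only miR-99b-3p was abundant. It had 129.7, 136 and 144 RPM in Control and 112, 113 and 85.2 RPM in TGF-b1, all TGF-b1 libraries being below. The log2 change was -0.40 ± 0.13 (SE, limma adjusted p = 0.0367) with library totals and -0.25 (limma adjusted p = 0.205) with TMM. In limma it missed the threshold without Control replicate 1 (-0.44, adjusted p = 0.0686), Control replicate 2 (-0.41, 0.0901), Control replicate 3 (-0.37, 0.0914) or TGF-b1 replicate 3 (-0.27, 0.0781). The ratio of the 3p to the 5p arm of miR-99b was 0.0549, 0.0547 and 0.0654 in Control and 0.0524, 0.0536 and 0.0336 in TGF-b1, so that 2 of the TGF-b1 libraries lay close under the Control range and TGF-b1 replicate 3 lay far under it. Its log2 difference was -0.35 ± 0.23 (SE, exact two-sided permutation p = 0.1), and -0.13 without that library.

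MiR-125a-3p had 15.4 to 18.8 RPM in Control and 11.8 to 16.0 RPM in TGF-b1, and the change of -0.33 ± 0.16 (SE) on the log2 scale did not pass (limma adjusted p = 0.127), nor did that of -0.19 with TMM (limma adjusted p = 0.338). It passed only without TGF-b1 replicate 1 (-0.46, limma adjusted p = 0.0398). Its ratio to miR-125a-5p was 0.0205 ± 0.00300 and 0.0211 ± 0.00283 (SD, n = 3 each), with overlapping groups (exact two-sided permutation p = 0.6). MiR-99a-3p had 2.70 to 3.70 and 1.62 to 3.10 RPM (log2 change -0.27, limma adjusted p = 0.300, and -0.17 with TMM, limma adjusted p = 0.513). MiR-100-3p had only 8 to 13 reads in a library (log2 change -0.18, limma adjusted p = 0.256, and -0.12 with TMM, limma adjusted p = 0.455). The log2 ratio of miR-100-3p to miR-100-5p separated the groups only through the pseudocount of 1, since the ratios of RPM overlapped.

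**Figure D5:**
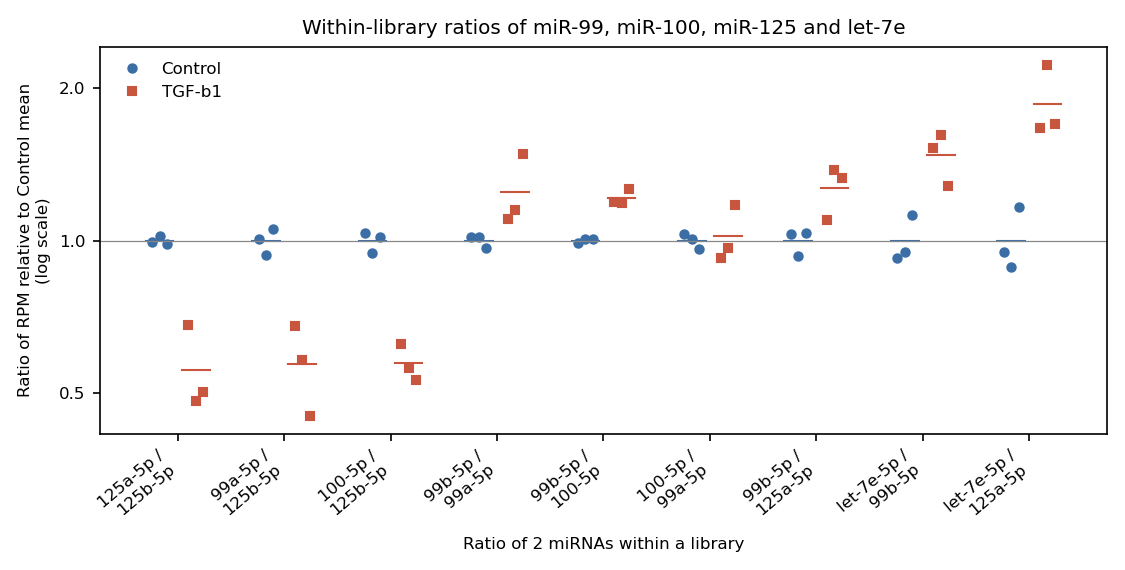
Ratios of 2 miRNAs within each library, divided by the Control mean of that ratio (log axis), with Control libraries as blue circles, TGF-b1 libraries as red squares and group means as short lines. The 3 ratios over miR-125b-5p lie below all Control libraries in TGF-b1, both let-7e-5p ratios lie above, and miR-100-5p over miR-99a-5p overlaps.

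MiR-10a-5p and miR-10b-5p are the sequence relatives of miR-99 and miR-100 outside these loci. MiR-10b-5p had 247 ± 15.4 RPM in Control against 129 ± 20.4 in TGF-b1 (SD, n = 3 each). It fell by 0.95 ± 0.13 (SE) on the log2 scale (limma adjusted p = 0.000910) and kept its call in all 18 alternatives. With TMM the change was -0.80 (limma adjusted p = 0.000691). It differs from miR-10a-5p, which had a mean of 12825 RPM in Control, by the single substitution U12A. The split of reads between them is therefore uncertain too. MiR-10a-5p changed by -0.14 with library totals (limma adjusted p = 0.0450) and by 0.01 with TMM (limma adjusted p = 0.927). Its limma call was also lost without Control replicate 1 or 2 or any TGF-b1 library, with changes of -0.12 to -0.16 and adjusted p-values of 0.0676 to 0.133.

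As a description over 6 libraries that fall into 2 groups, and over 88 other miRNAs with a mean of at least 50 RPM, the patterns most like that of miR-125b-5p were miR-29a-3p and miR-25-5p (Pearson's r of log2 values 0.995 and 0.989). For miR-99a-5p they were miR-744-5p (0.997) and miR-185-5p (0.985), and for miR-100-5p they were miR-16-5p (0.979) and miR-196a-5p (0.976). MiR-125a-5p was most like miR-674-5p (0.952) and miR-423-3p (0.942). MiR-99b-5p, with the weakest likenesses, was nearest to miR-342-3p (0.879) and miR-93-5p (0.858).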

How the data were processed

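Small RNA of 6 mesangial cell libraries (3 Control, 3 TGF-b1) was sequenced on an Illumina instrument. Per the study's methods, the authors trimmed adaptors, removed reads under 18 nt or of low quality, and compared the rest with known miRNAs of miRBase version 17 using Bowtie (version not given in the sources used here). The deposited unit, named TPM, is RPM here: reads per 1000000 of the library total, with no length scaling by the authors. From these values each library's total was recovered, and 100% of the values came out as whole reads within a tolerance of 0.002. All libraries of a group differed by more than sampling noise (chi-square per degree of freedom 38.5 to 117.5).

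Log2(RPM + 1) values were fitted in R 4.3.3 by limma 3.58.1, using a trended prior and a model of group alone. The fit covered the 408 miRNAs that passed filterByExpr (edgeR 4.0.16, minimum count 10), and p-values were adjusted after Benjamini and Hochberg. On the recovered reads, edgeR's quasi-likelihood test with library totals called 69 miRNAs higher and 125 lower, and DESeq2 1.42.0 called 75 and 72. Ratios within libraries were compared by exact permutation in scipy 1.17.1, on log2(RPM + 1). Other settings tried were scaling by upper quartile, by TMM, by median of ratios or by the summed rows. The filter was dropped or raised to a mean of 50 reads, the pseudocount was set to 0.1 or 10, a replicate block was added, and single libraries were left out. The fits were tested on simulated reads.

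Named were all arms of the member hairpins, the let-7 arms of the 3 loci, miRNAs sharing a member's 5p seed, miR-10a-5p and miR-10b-5p, and for each 5p member the 2 most correlated other miRNAs. The members and lists were chosen with earlier results of these data known. Sequences and coordinates came from RefSeq (GRCm38.p6).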

Additional observations from a re-analysis of the deposited data

How the results depend on the processing

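The call of miR-125b-5p held in all 18 alternatives, whereas the 4 lower members depended on the scaling. The number lower was 0 with DESeq2, edgeR with TMM, TMM, the summed rows and median of ratios, 1 with upper quartile (miR-125b-2-3p), 4 with edgeR on library totals, and 1 to 5 with 1 library left out: 1 without Control replicate 1 or 2, 2 without TGF-b1 replicate 2. Over all 408 miRNAs the fits with 1 library left out called 97 to 135 lower and 59 to 66 higher. The number higher was 2 with median of ratios, which added miR-125b-1-3p. With the replicate block 1 member was higher (miR-125b-5p) and 1 lower (miR-99a-5p). Libraries with the same number did not deviate together (correlations -0.08, -0.21 and -0.34). With 3 libraries in a group this cannot settle whether they were paired, which the labels do not say. Over all miRNAs the block gave 61 higher and 115 lower calls in place of 71 and 130. Over all miRNAs the split of higher and lower calls was 75 and 72 in DESeq2, 85 and 101 in edgeR with TMM, 97 and 91 for median of ratios, 84 and 104 for the summed rows, 82 and 104 for upper quartile, and 83 and 105 for TMM.

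Changes of sign were these. MiR-99b-5p was 0.162 in DESeq2, 0.099 in edgeR with TMM, 0.16 for median of ratios, 0.084 for the summed rows, 0.082 for upper quartile and 0.097 for TMM. MiR-10a-5p was 0.078 in DESeq2, 0.013 in edgeR with TMM, 0.074 for median of ratios and 0.011 for TMM. With 1 library left out, the log2 ratio of miR-100-5p to miR-99a-5p ranged from -0.079 to 0.094, that of miR-125a-3p to miR-125a-5p from -0.047 to 0.17, and that of miR-99a-3p to miR-99a-5p from -0.081 to 0.30. With a pseudocount of 0.1, miR-99a-3p over miR-99a-5p was -0.012 and miR-100-3p over miR-100-5p was -0.077. The other 172 of 180 ratio alternatives kept their direction. The cause of these changes was not tested. Without 1 library the smallest exact p is 0.2.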
